A study of Mus musculus with 6 samples.

Results

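The genes described here encode enzymes and reader proteins of histone marks: the lysine demethylases (Kdm genes), the histone deacetylases (Hdac), the sirtuins (Sirt), the chromobox proteins (Cbx) and the SET-domain methyltransferases (Setd and Setdb). The families were picked with earlier results of these data known. Within them, genes were taken by symbol alone, from every probe set that the array's annotation assigns to exactly 1 gene of these names. This gave 53 of the 18193 genes measured, read by 125 probe sets. Where several probe sets read a gene, the brightest on average over all arrays stood for it, so its level is a description; the difference between the groups played no part in that choice. Of the 53, 18 are Kdm genes, 11 Hdac, 7 Sirt, 7 Cbx and 10 Setd or Setdb.

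The RNA came from the olfactory epithelium, the sensory lining of the nasal cavity, of mouse pups aged 1 day, with 1 array per pup. Total RNA was purified on columns, amplified with a NuGEN kit and labelled with biotin. There were 3 wild-type pups and 3 pups that the labels call mutant, all of a mixed C57Black6/J and 129SvJ background. The study sought target genes of KLF7, a member of the Krüppel-like family of DNA-binding proteins; the labels do not describe the allele. Values are log2 intensities after quantile normalization between arrays, with a floor (intensity 12.56) below which levels were not distinguished.

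Histone tails are marked by acetyl and methyl groups that are written, read and removed by different protein families. Deacetylases and sirtuins take off acetyl groups, JmjC and flavin-dependent demethylases take off methyl groups, SET-domain enzymes add them, and chromobox proteins bind methylated H3K9 (the HP1 proteins) or methylated H3K27 (the Polycomb proteins). In olfactory sensory neurons the clusters of olfactory receptor genes are packed into heterochromatin marked by H3K9 methylation, and the demethylase KDM1A (also called LSD1) is known to be needed when a neuron begins to express the 1 receptor it keeps.

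The arrays differed in ways that the groups do not describe. Summed intensity ran from 10064207 to 14439788 per array. Both arrays numbered 3 stood apart: on the first principal component, with 50.2% of the variance, they scored 98.2 (wild type) and 49.5 (mutant), and the remaining 4 scored -42.4 to -32.3. Xist, the RNA of the inactive X chromosome, was at 11.13, 10.61 and 3.65, the floor, on wild-type arrays 1, 2 and 3 and at 11.03, 5.53 and 10.96 on the mutant arrays, while the Y-linked gene Eif2s3y ran the other way, at 4.95, 4.04 and 10.24 and at 4.05, 7.82 and 4.43. Wild-type array 3 and mutant array 2 were thus the low-Xist, high-Eif2s3y arrays; the labels give no sex. As a check of the labels, the brightest Klf7 probe set read 9.76, 8.71 and 9.62 on the wild-type arrays and 7.37, 8.05 and 6.21 on the mutant arrays. The difference was -2.15 (SE 0.55, limma, adjusted p = 0.0173 over 4 Klf7 probe sets, and 0.0692 without wild-type array 1). With the adjustment over all genes that is used for the members below, Klf7 did not pass (limma, unadjusted p = 0.00165). A difference of this size can thus be missed by that test. Defining markers of the tissue were present on every array. Cyp2g1, an enzyme of supporting cells, was at 10.97 to 11.80. Gnal, the olfactory G protein subunit, was at 10.21 to 10.36 on the wild-type and 9.10 to 9.48 on the mutant arrays, so its groups did not overlap.

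The upstream sequences of the members that the results turn on are given first, because the series asks for targets of a Krüppel-like factor and such factors bind CACCC boxes. The letters CACCC, or GGGTG on the other strand, are in capitals; each stretch is the 250 bases before the most upstream start that RefSeq lists (GRCm38.p6), 5′ to 3′ on the gene's own strand. Kdm3a, Kdm8 and Cbx3 are shown as the members whose groups did not overlap, and Setd2 as the member with the largest difference.
Kdm3a (chr6:71632918-71633167, minus strand): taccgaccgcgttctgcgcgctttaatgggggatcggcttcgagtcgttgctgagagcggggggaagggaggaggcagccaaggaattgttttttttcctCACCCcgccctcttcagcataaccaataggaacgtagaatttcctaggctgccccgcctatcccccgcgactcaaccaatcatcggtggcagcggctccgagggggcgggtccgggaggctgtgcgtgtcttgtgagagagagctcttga
Kdm8 (chr7:125444370-125444619, plus strand): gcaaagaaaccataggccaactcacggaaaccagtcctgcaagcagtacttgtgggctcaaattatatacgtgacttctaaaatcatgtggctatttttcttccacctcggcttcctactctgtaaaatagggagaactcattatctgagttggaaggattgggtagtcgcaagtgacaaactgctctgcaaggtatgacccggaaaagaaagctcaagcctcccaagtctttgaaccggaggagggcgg
Cbx3 (chr6:51470366-51470615, plus strand): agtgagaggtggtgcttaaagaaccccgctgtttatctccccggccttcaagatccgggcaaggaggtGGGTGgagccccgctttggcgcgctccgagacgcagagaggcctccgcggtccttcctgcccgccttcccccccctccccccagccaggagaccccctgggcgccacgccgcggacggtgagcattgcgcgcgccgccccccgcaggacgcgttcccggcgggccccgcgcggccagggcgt
Setd2 (chr9:110532347-110532596, plus strand): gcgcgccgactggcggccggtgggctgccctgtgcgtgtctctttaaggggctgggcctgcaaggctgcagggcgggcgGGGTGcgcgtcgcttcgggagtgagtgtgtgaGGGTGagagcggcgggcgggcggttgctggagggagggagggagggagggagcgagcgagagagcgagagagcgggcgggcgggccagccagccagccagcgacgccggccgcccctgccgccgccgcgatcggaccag

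Kdm3a and Cbx3 held the letters once each, Setd2 held them 2 times and Kdm8 did not hold them in this window. RefSeq upstream sequence was found for 43 of the 53 members. Among the 41 of these that were tested, 26 (63.4%) held CACCC on either strand, against 57.4% of 10159 tested genes with such a sequence. The letters GGGCGG (both strands), the GC box, were in 63.4% of the tested members and 58.0% of the tested genes. The median C+G content was 60.4% in the tested members and 59.6% in the tested genes, with 17 and 15 CpG pairs per 250 bases. The 26 tested members with CACCC split evenly, 13 lower and 13 higher in the mutant, and the 15 without it split 9 to 6. A match is a description of the sequence, and these shares were not tested.

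Across these families no member passed the test between mutant and wild type. The level of 50 members was high enough to be tested, among 12703 genes in all; the least bright of them were Hdac8 and Cbx8 (means of 5.25 and 5.34 over 6 arrays, against a dim level of 5.19), and Kdm5d, at 4.58, was the brightest of the 3 left out. With limma and adjustment over all of them, 0 of the 50 members had an adjusted p under 0.05, as did 0% of all genes tested, and 0 had an unadjusted p under 0.05, against 0.598% of all genes. With the replicate number as a block, 1 member, Cbx3, had an unadjusted p under 0.05 (limma, 0.0326; adjusted p = 1), against 1.24% of all genes, and with that block 0% of all genes passed after adjustment. The members were balanced around no change, with 25 lower and 25 higher (50%, against 52.6% lower among all genes) and a median difference of 0.003 (-0.018 for all genes).

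The size and agreement of the differences are given beside those of all genes. A log2 difference over 0.5 in size was seen in 9 of 50 members (18%), beside 16.1% of all genes. The sign was the same in all 3 pairs of arrays with the same number for 10 members (20%), beside 15.8%. Groups did not overlap for 3 members (6%), beside 2.86%: 1 was lower in the mutant (1.95% of all genes) and 2 were higher (0.905%). When arrays were scaled to a common median instead, 0 members were without overlap. The share of all genes under that setting was not taken. Kdm3a (0.18 to 0.45), Kdm8 (0.27 to 0.50) and Cbx3 (-1.94 to -0.58), the 3 without overlap, kept the sign of their difference under all 18 alternative settings. This was largely fixed in advance. Where groups do not overlap, leaving out arrays can change the sign only through the renewed normalization. The block, trend and filter settings return the same difference. An exact test of 3 arrays against 3 cannot give a p below 0.1. The median of the members' within-pair differences was -0.14, 0.18 and -0.01 for numbers 1, 2 and 3.

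A missed threshold does not show that levels were alike, so the width of each interval matters. The 95% interval of the difference lay within 1 log2 unit of 0, which leaves out changes of 2-fold or more, for 16 of 50 members (32%, and 30.2% of all genes); for the others it reached changes of 2-fold or more. It lay within 2 log2 units, or 4-fold, for 40 members. The median half-width was 1.07, from 0.427 for the most tightly measured member to 3.08 for the least.

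**Figure D1:**
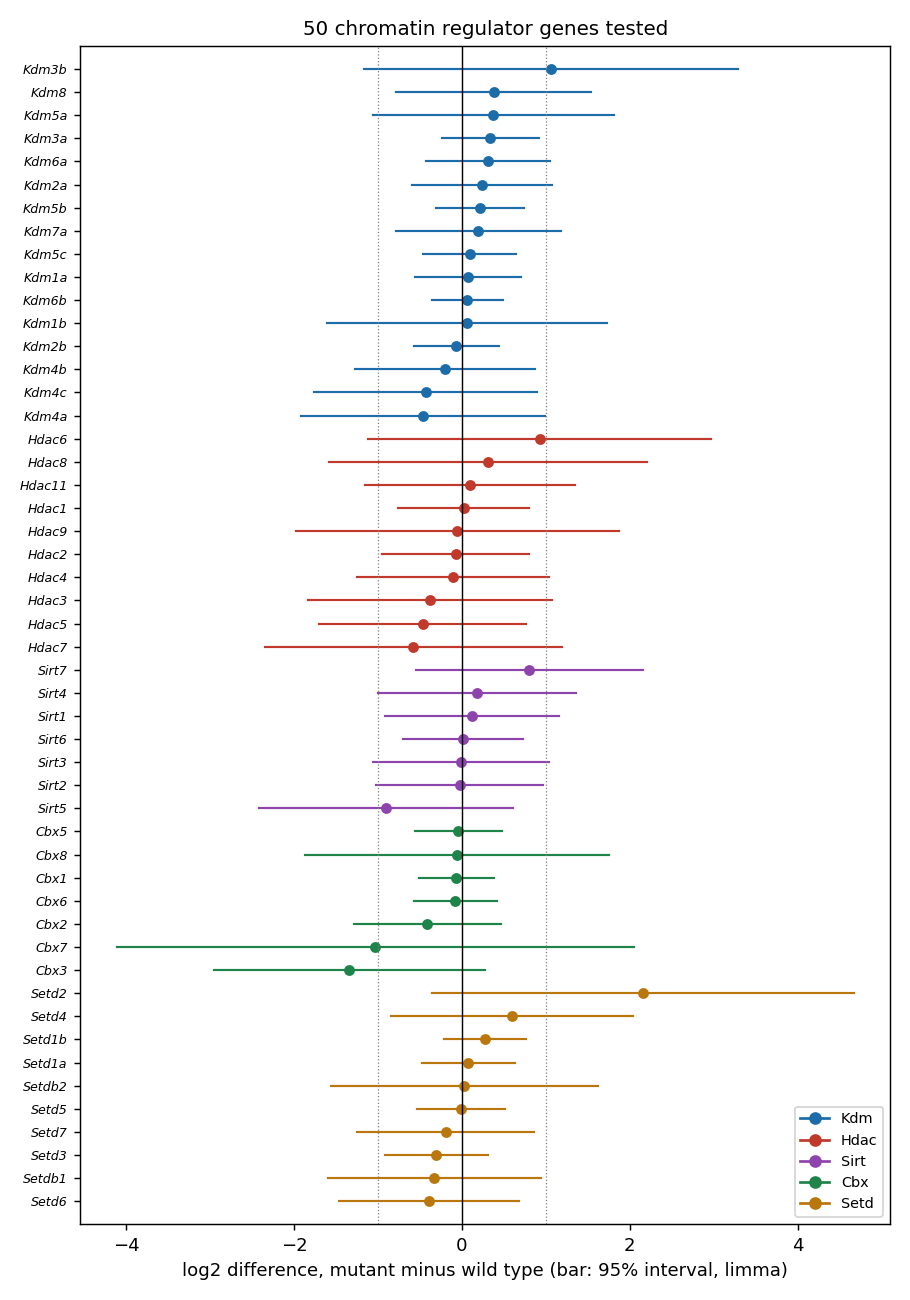
Log2 difference, mutant minus wild type, for the 50 members tested, coloured by family; points are differences between means of 3 arrays and bars are 95% limma intervals. Every bar crosses 0, and for 16 members the bar stays between the dotted lines at -1 and 1.

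The demethylases of H3K4 and H3K36 come first. Kdm1a, the demethylase of H3K4 linked to receptor choice, was at 10.09, 9.87 and 9.28 on wild-type arrays 1, 2 and 3 and at 9.76, 9.89 and 9.80 on the mutant arrays. The mutant values lay inside the wild-type range, with a difference of 0.07 (SE 0.286; 95% interval -0.56 to 0.70; limma, adjusted p = 1). A second Kdm1a probe set differed by 0.04, lowest on both arrays numbered 3 (8.07 and 8.25, against 9.07 to 9.42 on the others). Kdm2b, a demethylase that also brings a Polycomb complex to CpG islands, differed by -0.07 (95% interval -0.57 to 0.44), and Kdm5b, which removes H3K4 methylation, by 0.22 (-0.31 to 0.74). Kdm5b was at 9.85, 9.85 and 10.11 in the wild-type pups and 10.30, 10.06 and 10.11 in the mutants. Kdm2a differed by 0.24, Kdm5a by 0.38 and Kdm1b by 0.06, all with intervals that reached beyond 1. Of the 7 tested, 1 was lower and 6 higher, with a median of 0.09.

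The X- and Y-linked demethylases were read against Xist on each array. Kdm5c, an X-linked H3K4 demethylase known to escape X inactivation, read 11.43, 11.46 and 10.58 in the wild-type pups and 11.46, 11.12 and 11.15 in the mutants. Its lowest and next lowest values were on the low-Xist arrays, wild-type array 3 and mutant array 2. Its difference was 0.09 (SE 0.253; 95% interval -0.46 to 0.65) with all arrays and -0.13 without those 2 arrays, and its 5 probe sets above the dim level differed by 0.02 to 0.35. Wild-type array 3 was lowest on 4 of these 5 probe sets, and mutant array 2 next lowest on 2 of them. Kdm5d, the Y-linked counterpart of Kdm5c, was too dim to test. Its chosen probe set read 4.98, 3.65 and 6.46 in the wild-type pups and 4.31, 4.45 and 3.65 in the mutants, highest on the low-Xist wild-type array. The other Kdm5d probe sets, also dim, were highest on mutant array 2 (5.43) and on mutant array 3 (4.63). On wild-type array 3 they read 4.12 and 3.65. Kdm6a, the X-linked H3K27 demethylase that also escapes X inactivation, read 10.34, 9.47 and 10.27 on the wild-type and 9.88, 10.23 and 10.91 on the mutant arrays, in no order shared with Xist. Its difference was 0.31 (SE 0.333); leaving out wild-type array 2 or mutant array 3 made it 0.03. The part of pup sex in these differences was not tested.

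**Figure D2:**
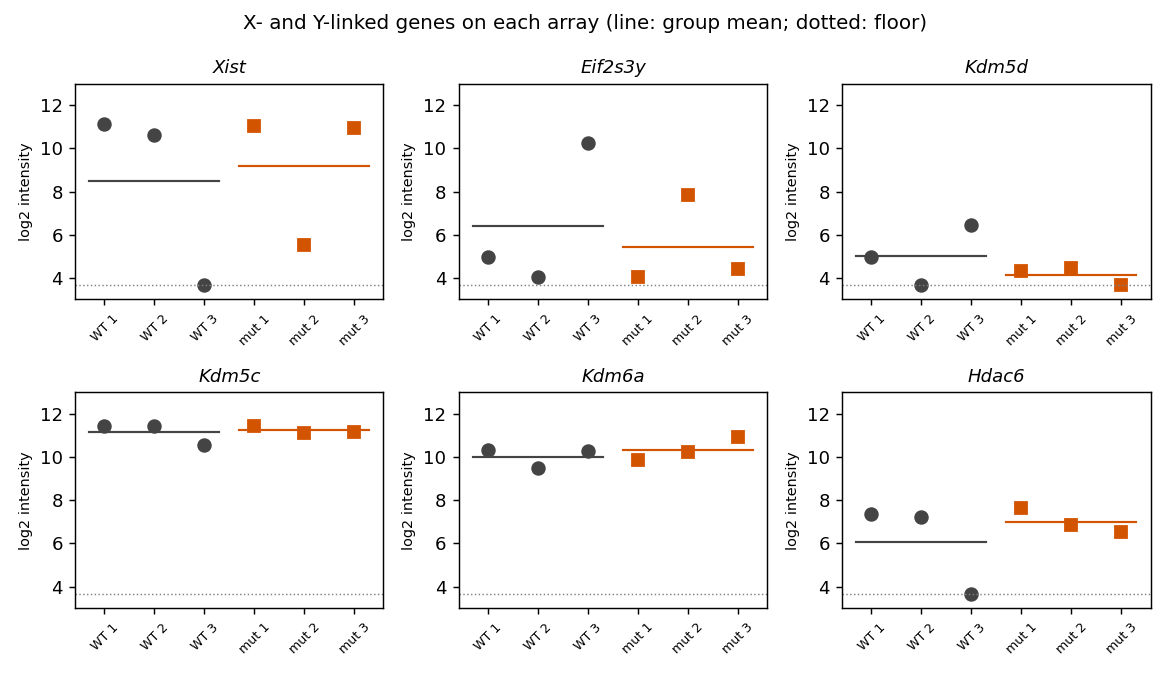
Log2 intensity of Xist, Eif2s3y and 4 X- or Y-linked members on each array; lines are group means and the dotted line is the floor. Xist is low and Eif2s3y high on wild-type array 3 (at the floor and 10.24) and mutant array 2 (5.53 and 7.82), and Hdac6 is at the floor on wild-type array 3.

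Among the H3K9 demethylases, Kdm3a, which removes the lower methylation states of H3K9, was at 9.31, 9.83 and 9.74 in the wild-type pups and at 9.96, 9.96 and 9.98 in the mutants. The groups did not overlap and the mutant arrays lay within 0.03 of each other, but the difference was 0.34 (SE 0.263, 1.27-fold; 95% interval -0.24 to 0.92; limma, adjusted p = 1) and did not pass. Its paralog Kdm3b was at 7.98, 6.19 and 3.65 in the wild-type pups and 6.95, 8.14 and 5.92 in the mutants. Kdm3b differed by 1.06 (SE 1.01), which became -0.09 without wild-type array 3, where it lay at the floor. The JmjC genes Kdm4a, Kdm4b and Kdm4c, which act on H3K9 and H3K36, differed by -0.46, -0.20 and -0.43, each with overlapping groups. Kdm7a differed by 0.20, and its 5 probe sets above the dim level ran from -0.24 to 0.82. Kdm4d was dim, at the floor on all mutant arrays and no higher than 4.07 elsewhere.

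Kdm8, a JmjC oxygenase, was the other member that was higher in every mutant array, at 6.54, 6.41 and 6.45 in the wild-type pups and 7.06, 6.82 and 6.65 in the mutants. Its difference was 0.38 (SE 0.528, 1.30-fold; 95% interval -0.78 to 1.54; limma, adjusted p = 1). The SE exceeds what these 6 values alone would give, because limma draws the variance of each gene toward that of genes of like intensity. Kdm6b, the H3K27 demethylase induced by many stimuli, was at 12.34, 11.71 and 11.72 in the wild-type pups and 12.12, 11.96 and 11.89 in the mutants. Its difference was 0.07 with the interval -0.36 to 0.49. These values are from the chosen probe set, with a mean of 11.96 over 6 arrays. The other Kdm6b probe sets lay below the dim level, at means of 4.55 and 4.46, so the level of Kdm6b rests on the chosen one. The Kdm family as a whole had 12 of 16 tested members higher and a median of 0.15, with 0 past the test; without wild-type array 3, 5 of 16 were higher and 11 lower. Without both arrays numbered 3, 10 were higher and 6 lower, and without wild-type array 3 and mutant array 2, 6 were higher and 10 lower. The direction of the majority thus depended on which arrays were used.

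**Figure D3:**
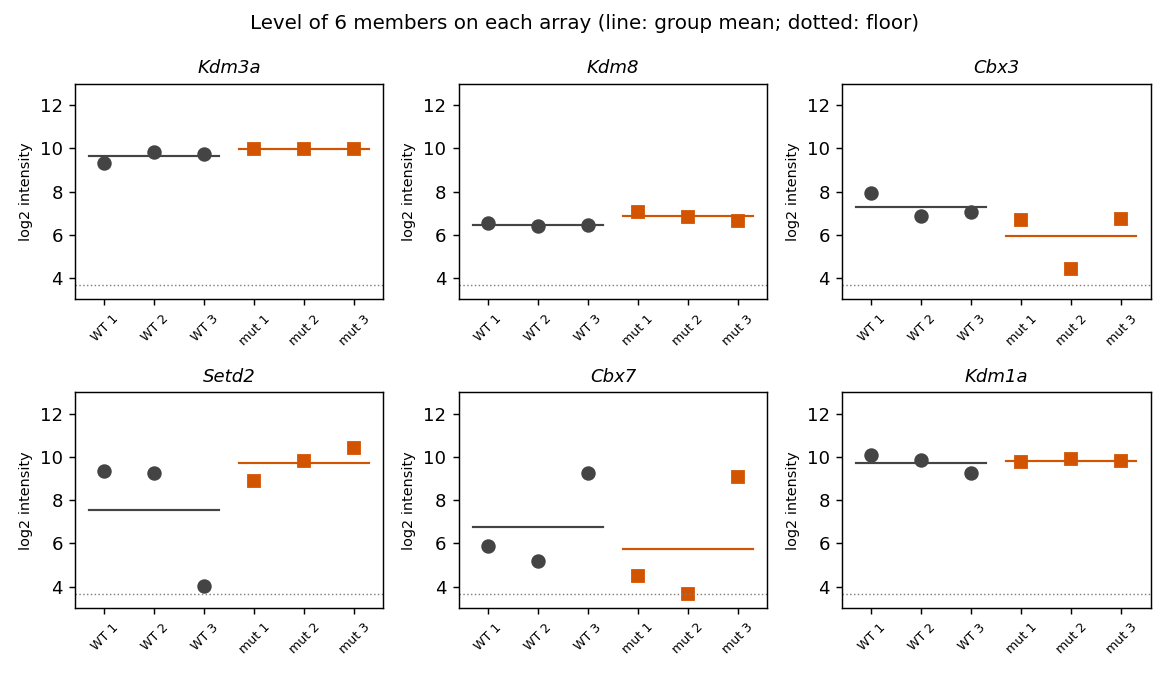
Log2 intensity of Kdm3a, Kdm8, Cbx3, Setd2, Cbx7 and Kdm1a on each array; lines are group means of 3 arrays and the dotted line is the floor. Kdm3a and Kdm8 are higher and Cbx3 lower on every mutant array, Setd2 is at 4.04 on wild-type array 3 alone, and Cbx7 is above 9 on both arrays numbered 3.

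The class I deacetylases, which include catalytic subunits of the main co-repressor complexes, had overlapping groups throughout. Hdac1 was at 8.70, 9.57 and 9.30 in the wild-type pups and 8.96, 8.99 and 9.69 in the mutants, a difference of 0.02 (SE 0.354; 95% interval -0.76 to 0.80). Hdac2 was at 10.04, 8.81 and 9.90 in the wild-type pups and 9.21, 10.14 and 9.18 in the mutants, a difference of -0.07 (SE 0.398). A second Hdac2 probe set gave 9.98, 8.84 and 9.49, and then 9.04, 9.94 and 8.996, so both probe sets read wild-type array 2 and mutant arrays 1 and 3 as low and the others as high. The median of 5 horizontal basal cell markers was highest on the same 3 arrays, at 10.09, 10.17 and 9.23 against 8.61, 7.86 and 8.57 on the other 3. Of these markers Krt5, Krt14 and Krt17 were clearly higher there, Krt15 by a narrow margin (8.607 on mutant array 3 against 8.606 on wild-type array 1), and Trp63 was highest on mutant array 2. The median of 8 tested squamous epithelium markers was 9.23, 7.66 and 7.23 on these arrays against 5.20, 5.12 and 3.68, but Krt10, Ivl and Krt1 had other orders. Cartilage and bone markers (6 tested) had medians of 9.81, 9.16 and 8.33 against 6.003, 7.60 and 7.51. Of these markers only Ibsp, a bone protein gene (11.21, 10.02 and 9.66 against 4.39, 5.13 and 3.65), and Col11a1 were higher on all 3 arrays. Sox5 was highest on both arrays numbered 3. On mutant array 3, Col2a1 (6.79) and Acan (7.222) were below their levels on mutant array 2 (7.545 and 7.475). Col9a1 was at 10.18 on wild-type array 3, above mutant arrays 1 and 3 (10.065 and 10.143). The part of these cells in the level of Hdac2 was not tested, and in whole tissue fewer cells of a type and less RNA per cell cannot be told apart. Hdac3 differed by -0.38 (SE 0.66) and the X-linked Hdac8 by 0.31 (SE 0.86).

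The class IIa deacetylases, which shuttle between nucleus and cytoplasm, were all lower on average, with a median of -0.29 over 4 genes and 0 past the test; 1 of 4 was higher with array medians set equal and 2 of 4 on the values as deposited. Hdac5 read 7.72, 7.66 and 8.09 in the wild-type pups and 7.86, 6.17 and 8.05 in the mutants, so the difference of -0.47 (SE 0.56) came from mutant array 2 and became 0.13 without it. Hdac7 read 6.23, 6.54 and 5.87 in the wild-type pups and 6.58, 6.37 and 3.97 in the mutants; its difference of -0.58 (SE 0.804) became 0.26 without mutant array 3. Hdac4 differed by -0.10 and Hdac9 by -0.05, and Hdac9 was highest on both arrays numbered 3 (8.62 and 7.89, against 5.44 to 6.86). A second Hdac9 probe set, nearly as bright (means of 6.49 and 6.75 over 6 arrays), differed by -1.02 with overlapping groups. For Hdac5 and Hdac7 a single mutant array made the sign.

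Of the other deacetylases, the X-linked Hdac6, the tubulin deacetylase of the cytoplasm, read 7.37, 7.21 and 3.65 in the wild-type pups and 7.63, 6.85 and 6.54 in the mutants. Its difference of 0.93 (SE 0.928) became -0.29 without wild-type array 3, which lay at the floor. Hdac11, the only class IV enzyme, differed by 0.10 (SE 0.568) on its chosen probe set and by -0.93 on a second one, where the groups did not overlap (6.77 to 6.95 against 4.53 to 6.67). The 2 Hdac11 probe sets thus disagreed in direction. Hdac10 was dim, at the floor on 5 of 6 arrays.

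The sirtuins, deacylases that need NAD, had 3 lower and 4 higher of 7 tested, with a median of 0.01 and 0 past the test. Sirt1, a nuclear deacetylase, differed by 0.12 (SE 0.473), Sirt2 in the cytoplasm by -0.03, the mitochondrial Sirt3 by -0.01 and the chromatin-bound Sirt6 by 0.01 (SE 0.322; 95% interval -0.70 to 0.72). These 4 were the sirtuins with the smallest differences. Sirt5, a mitochondrial desuccinylase, read 6.75, 6.05 and 6.98 in the wild-type pups and 5.83, 4.73 and 6.53 in the mutants, a difference of -0.90 (SE 0.687, 1.87-fold). All 3 of its probe sets were lower on average in the mutant, by -0.90, -0.55 and -0.30, but the groups overlapped on each. Without mutant array 2 the chosen probe set differed by -0.41; a second probe set is the brightest on the remaining 5 arrays, and it differed by 0.08. Sirt7, a nucleolar deacetylase, read 8.80, 8.88 and 6.66 in the wild-type pups and 8.42, 8.50 and 9.83 in the mutants; its 0.80 (SE 0.616) became 0.08 without wild-type array 3. Sirt4 differed by 0.18.

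All 7 chromobox genes were lower on average in the mutant, with a median of -0.08 and 0 past the test, but on the values as deposited 3 were lower and 4 higher. With the floor at the 40th percentile 6 were lower, and without both arrays numbered 3 there were 2 lower of 6 tested (3 of 7 with the tested genes held). In 5 of the 7 the difference was under 0.5. Cbx1 (HP1 beta) was at 11.68, 11.30 and 11.94 in the wild-type pups and 11.36, 11.73 and 11.62 in the mutants, a difference of -0.07 (95% interval -0.52 to 0.38). Cbx5 (HP1 alpha) was at 11.20, 10.67 and 10.70 and at 10.97, 10.97 and 10.51, a difference of -0.04 (-0.56 to 0.47). On these chosen probe sets both HP1 genes were thus among the members for which a 2-fold change lay outside the interval. Above the dim level, 2 further Cbx1 probe sets were higher in the mutant, by 0.15 and 0.65. A second Cbx5 probe set differed by -0.61. Cbx3 (HP1 gamma) read 7.95, 6.87 and 7.03 in the wild-type pups and 6.69, 4.40 and 6.73 in the mutants, with no overlap. Its difference was -1.34 (SE 0.732, 2.53-fold; 95% interval -2.95 to 0.27; limma, adjusted p = 1) and -0.58 without mutant array 2. Only 1 probe set carries Cbx3 as its sole symbol, and probe sets annotated to Cbx3 together with a second symbol were not used.

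Of the Polycomb chromobox proteins, which bind methylated H3K27 within the complex PRC1, Cbx6 was at 11.54, 11.55 and 11.23 in the wild-type pups and 11.59, 11.59 and 10.90 in the mutants, a difference of -0.08 (95% interval -0.57 to 0.41). Cbx2 was lower by 0.41 on the log2 scale (difference -0.41, SE 0.398), which shrank to -0.03 when mutant array 2 was left out. Cbx7 stood out for its spread: 5.86, 5.18 and 9.27 in the wild-type pups and 4.47, 3.65 and 9.10 in the mutants. Both arrays numbered 3 were more than 3 units above the other 4, and the mutant array was lower than the wild-type array within each number. The difference was -1.03 (SE 1.398), and 1.35 without the low-Xist arrays, so its sign depended on which arrays were set against each other. Cbx8 differed by -0.06 (SE 0.822).

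Among the SET-domain methyltransferases Setd2, which trimethylates H3K36 along transcribed genes, had the largest difference of all members, 2.16 (SE 1.141; 95% interval -0.35 to 4.67; limma, adjusted p = 1). It read 9.36, 9.26 and 4.04 in the wild-type pups and 8.88, 9.82 and 10.43 in the mutants. One array made this difference: without wild-type array 3 it was 0.40. Setd2 has a single probe set, so no second reading of that array exists here. Setd1b, an H3K4 methyltransferase, was at 11.14, 11.09 and 10.55 and at 11.20, 11.40 and 11.02, a difference of 0.28 (SE 0.222; 95% interval -0.21 to 0.77), and its paralog Setd1a differed by 0.08.
Setdb1, the H3K9 methyltransferase of heterochromatin, was at 7.24, 6.58 and 6.60 and at 6.75, 6.87 and 5.81, a difference of -0.33 (SE 0.577), while its 3 probe sets ran from -0.33 to 0.47. Setdb2 and Setd7 differed by 0.03 and -0.19. Of the remaining genes, Setd3, which methylates a histidine of actin, differed by -0.30 (SE 0.28), Setd4 by 0.60 (SE 0.656), Setd5 by -0.01 (95% interval -0.54 to 0.51) and Setd6 by -0.39 (SE 0.485).

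The spread of the members is next given array by array. The range over the 6 arrays had a median of 1.39 and went from 0.45 to 6.39, and exceeded 2 for 14 members. A member lay more than 1 unit below all other arrays in 10 cases: Hdac6, Kdm3b, Setd2 and Sirt7 on wild-type array 3, Cbx3, Hdac5, Kdm4a and Sirt5 on mutant array 2, and Cbx8 and Hdac7 on mutant array 3. No member lay more than 1 unit above all others on any of the 6 arrays. Wild-type array 3 held the lowest value for 12 members (24%) and mutant array 2 for 12 (24%), beside 28.1% and 24.7% of all genes tested. Wild-type array 2 and mutant array 3 did so for 11 members each (22%), beside 13.1% and 15.4%. For wild-type array 1 and mutant array 1 it was 2 members each (4%), beside 10.4% and 7.37%. Across the 50 members, levels on wild-type arrays 1 and 2 and mutant array 1 correlated at 0.951 to 0.969 (Pearson's r over genes of the same arrays, a description), and those on wild-type array 3 with any other at 0.696 to 0.819.

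**Figure D4:**
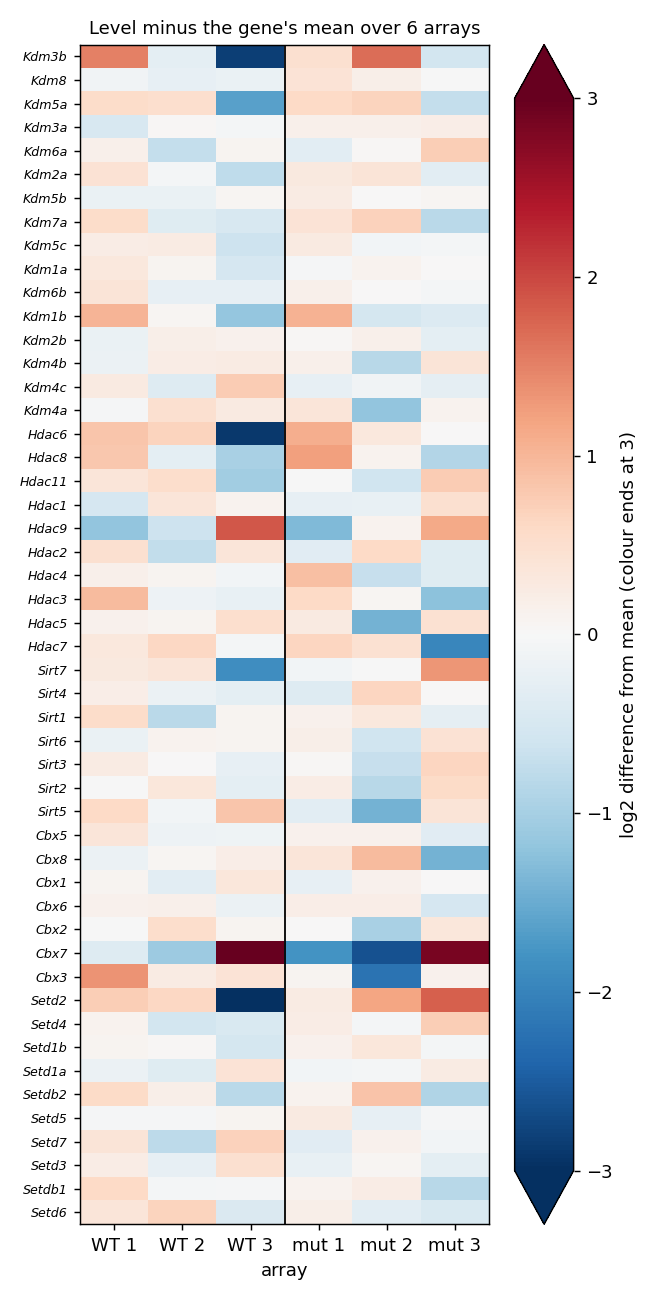
Level of each tested member on each array minus its mean over the 6 arrays, in log2 units; rows are genes ordered by family and difference, columns are arrays, and the line parts wild type from mutant. The darkest cells are single arrays: Setd2, Hdac6 and Kdm3b low on wild-type array 3, and Cbx7 high on both arrays numbered 3.

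Probe sets of 1 gene were also set side by side. Of 23 members with more than 1 probe set above the dim level, 11 had probe sets that differed in direction: Cbx1, Hdac4, Hdac7, Hdac11, Kdm2a, Kdm5a, Kdm6a, Kdm7a, Setd3, Setd5 and Setdb1. The largest disagreement was in Setd3, from -0.30 to 0.79. In 12 members all such probe sets had 1 direction, among them Kdm5c with 5 probe sets higher and Sirt5 with 3 lower.

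Partners of these enzymes were read from a list of their complexes. Of 82 genes listed for co-repressor, Polycomb, heterochromatin, acetyltransferase and further methyltransferase roles, 73 were on the array and 72 were tested. By limma 0 passed after adjustment and 0 had an unadjusted p under 0.05; 32 were lower and 40 higher, with a median of 0.03. The 21 tested co-repressor subunits had a median of -0.003 (11 lower), with Phf21a, a reader in the KDM1A complex, at 0.41 (SE 0.343) and Gatad2b at 0.31. The 16 Polycomb partners had a median of 0.05 (6 lower): the methyltransferase Ezh2 differed by -0.04 (SE 0.281), Bmi1 by 0.43 (SE 0.365), and Pcgf3 by 0.87, with wild-type array 3 at 5.89 and the other 5 arrays at 8.87 to 9.33.
Of the 11 heterochromatin genes 6 were lower. Ehmt2, the H3K9 methyltransferase G9a, differed by 0.01 (SE 0.48) and Kmt5b, an H4K20 methyltransferase, by -0.41. Smchd1, a repressor acting on the inactive X, was at 10.71, 10.79 and 10.60 in the wild-type pups and 10.94, 10.94 and 10.998 in the mutants, without overlap, a difference of 0.26 (SE 0.193; limma, adjusted p = 1). The acetyltransferases Ep300 and Kat7 differed by 0.55 (SE 0.32) and 0.81 (SE 0.533), with 3 of 10 of their list lower. Dot1l, the H3K79 methyltransferase, was at 8.63, 8.25 and 7.99 and at 8.80, 8.76 and 8.92, also without overlap, a difference of 0.54 (SE 0.351), while Dpy30 differed by -0.41 within the 14 other methyltransferase genes, of which 6 were lower. The third partner without overlap, named after its values were seen, was the co-repressor subunit gene Tbl1xr1, at 10.59, 10.60 and 10.61 in the wild-type pups and 10.45, 10.48 and 10.52 in the mutants, a difference of -0.12 (SE 0.204; limma, adjusted p = 1). Of the 72 partners, 1 was thus lower without overlap and 2 were higher, beside 1.95% and 0.905% of all genes.

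Markers of the neurons were read on the same arrays. Of 10 tested markers of mature olfactory sensory neurons 8 were lower on average in the mutant (limma, 0 with an adjusted and 6 with an unadjusted p under 0.05), with a median difference of -0.84 and a median level of 9.11 to 9.48 on wild-type and 8.49 to 9.33 on mutant arrays. Of the 10 mature markers 6 were lower without overlap and 0 were higher, beside 1.95% and 0.905% of all genes. Markers of immature neurons had a median of -0.28 with 8 of 10 lower, 4 of them without overlap. Those of cycling progenitors had -0.24 with 8 of 9 lower, 0 of them without overlap. The members' median over the same arrays was 0.003. Whether members used in neurons differed within those cells was not tested.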

How the data were processed

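Olfactory epithelium RNA of 3 wild-type and 3 mutant pups was amplified, biotin-labelled and hybridised to 1 array each, per the labels' protocols. The values the authors deposited are linear intensities, 1 for each probe set on each array. The sources used here do not state how they were summarised or scaled, and the number of arrays limits the precision. Log2 quartiles differed between arrays by up to 0.675, so the 45037 probe sets were quantile normalized, given a floor equal to their 20th percentile (intensity 12.56) and log2 transformed; differences near the floor are understated. Gene names came from GEO's annotation of the platform: 34945 carried 1 symbol, 932 several and 9160 none. Per gene the probe set with the highest mean was kept, and 5490 of 18193 genes with a mean below 5.19 (the lowest 40% of single-gene probe sets) were left out as dim.

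Mutant was set against wild type in R 4.3.3 with limma 3.58.1 (intensity trend, two-sided, Benjamini-Hochberg over 12703 genes, threshold 0.05), after a test on simulated data. The members and gene lists were chosen with earlier results of these data known. Always named were Klf7, Xist and a fixed set of members and partners; the others named were members without overlap, up to 3 of smallest p per role and 2 per partner list, and dim or discordant members; further members are given by their values. Pups are separate animals per the series' design. The replicate numbers come from the titles. Deviations of same-numbered arrays from their group means correlated at 0.473, 0.181 and 0.564, all above 0.1. The numbers were therefore taken as pairs for the within-pair differences and for the block, which was an alternative. SEs, intervals and p-values are from the fit without the block unless the block is named, so they leave the pairing out. For Cbx7 the unadjusted p was 0.477 without the block and 0.0684 with it (limma). Wild-type array 2 and mutant array 1 correlated at 0.219, above the pair numbered 2, so these values do not single out that pair. The remaining differently numbered arrays correlated at -0.472 to 0.0915. Other alternatives changed normalization, floor, filter, probe set, variance model, weights and arrays used.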

Additional observations from a re-analysis of the deposited data

How the results depend on the processing

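The counts of 0 members and 0 partner genes called by limma were the same under all 18 alternatives; at an unadjusted p under 0.05 members numbered 0 or 1 and partners 0 to 2. Under the replicate block 0 members were called and no call changed. Klf7 differed by -2.15 (limma, adjusted p = 0.0299 over 4 Klf7 probe sets, not over all genes). Over all genes 0 were called under each alternative but the omission of wild-type array 3 and mutant array 2, chosen after seeing the data, which called 1 gene, BC018473, no member. Genes at an unadjusted p under 0.05 numbered 76 and, elsewhere, 43 to 258. The 3 members without overlap became 0 with array medians set equal and 13 without both arrays numbered 3. They became 11 without wild-type array 3 and mutant array 2, and 5 to 9 when 1 array was left out. Fewer arrays overlap less often by construction. The same counts over all genes were not taken, so these counts are no result about the members. The members' median difference stayed between -0.09 and 0.11. Leaving out 1 array moved the Klf7 difference between -2.604 and -1.661, with the call over the Klf7 probe sets lost without wild-type array 1 (-1.916). Of 35 named members 8 kept their sign under every alternative. Among 618 such values 82 had the other sign, and 11 moved by over 1 SD between replicates; the cause was not tested. Leaving out arrays also changed which probe set was brightest for Sirt5, Kdm5a, Hdac9 or Setd4. With probe sets held, an alternative added after seeing the data, Sirt5 was lower throughout, and without wild-type array 3 the Kdm genes still counted 11 lower and 5 higher.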
